A study of Mus musculus with 24 samples.

Results

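The genes described here are the class I histone deacetylase genes Hdac1, Hdac2 and Hdac3 and the processed pseudogenes Gm10093 and Gm4864, whose sequences match the Hdac1 coding sequence. They were picked by Ensembl identifier from the table of raw counts, with symbols from GENCODE release 21 for mouse, and all 5 were found among its 55536 genes. Hdac1, Gm10093 and Gm4864 were put into the set because their levels differed between the mutant and wild-type libraries. Their contrasts with the wild type are therefore given as levels and fold changes without a test, while Hdac2 and Hdac3, taken in as relatives of Hdac1, were tested throughout.

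RNA was measured in spermatocytes at the pachytene/diplotene stage and in round spermatids, each enriched by sedimentation through layers of bovine serum albumin. The males were 10 to 15 weeks old and of 3 genotypes, Ago413+/+, Ago413+/- and Ago413-/-, all on the C57BL/6J background, and no group received a treatment. The deletion removes all of Ago1 and parts of Ago3 and Ago4 on chromosome 4, in every tissue, after recombination by a Sox2-driven Cre, and the mutant allele still gives Ago3 and Ago4 transcripts with early stop codons. It was made in embryonic stem cells of the line AB2.2 129S7/SvEvBrd-Hprt1+, passed through deleter mice of mixed background (C57BL/6 and Swiss Webster) and then backcrossed. The deletion and any sequence of those strains still linked to it were present in the same groups and cannot be told apart here. Each library came from testes of several males pooled before the enrichment, and the fractions still held other germ cells. There were 4 Ago413+/+, 3 Ago413+/- and 3 Ago413-/- spermatocyte libraries and 3, 4 and 4 round spermatid libraries in the same order. A further 3 libraries that the labels call outliers (1 wild-type and 1 heterozygous from spermatocytes, 1 wild-type from round spermatids) were left out of means and tests, and their values are given apart.

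Class I histone deacetylases are nuclear enzymes that take acetyl groups off histone tails, a change that goes with less open chromatin. Hdac1 and Hdac2 are close paralogs that work inside the SIN3, NuRD, CoREST and MiDAC complexes, whereas Hdac3 works with the corepressors NCoR and SMRT. In the male germ line, histone acetylation is best known for its wave in elongating spermatids, just before histones give way to protamines. A processed pseudogene is an intronless copy of an mRNA that was reverse transcribed and put back into the genome at another place.

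Hdac1 (ENSMUSG00000028800) lies on the minus strand of chromosome 4, chr4:129516104-129542713 (mm10), with 14 exons, and its nearest edge is 3.05 Mb from Ago1. Hdac2 (ENSMUSG00000019777) lies on the plus strand at chr10:36974544-37001889. Gm10093 (ENSMUSG00000061062) is a single exon on the plus strand at chr17:78491582-78493025, between Fez2 and Vit. Gm4864 (ENSMUSG00000112003) is a single exon on the minus strand at chr12:77623549-77625009, between Fut8 and the lincRNA gene 4930458K08Rik. Both pseudogenes are thus on other chromosomes than Hdac1 and than the deletion.

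The pseudogene sequences are shown because the counts given to Hdac1 and to its copies rest on the bases at which they differ. Sequences were read from the mm10 genome and the GENCODE transcripts, and positions count from 1 at the first base of the Hdac1 start codon, over a coding sequence of 1449 bases. Gm10093 was 99.4% identical to it, with 9 substitutions (G342A, C408T, T441A, A460G, C465T, C472T, T482C, T719C and C1170A), no inserted or deleted base, and no stop codon in frame over 481 codons. Window A, positions 396 to 495, is the densest stretch and holds 6 of those 9 substitutions. It comes from chr4:129522963-129523061 and 1 base of the next exon at position 129522504 for Hdac1 (minus strand), chr17:78491977-78492076 for Gm10093 (plus strand) and chr12:77624515-77624614 for Gm4864 (minus strand), and capitals mark bases that differ from Hdac1.
Hdac1, window A: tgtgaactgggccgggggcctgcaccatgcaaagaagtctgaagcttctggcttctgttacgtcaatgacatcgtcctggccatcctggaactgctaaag
Gm10093, window A: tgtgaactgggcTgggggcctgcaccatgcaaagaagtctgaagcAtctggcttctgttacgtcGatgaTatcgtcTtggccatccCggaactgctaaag
Gm4864, window A: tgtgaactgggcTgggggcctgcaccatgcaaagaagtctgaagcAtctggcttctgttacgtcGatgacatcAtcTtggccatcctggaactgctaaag
Hdac2, window A: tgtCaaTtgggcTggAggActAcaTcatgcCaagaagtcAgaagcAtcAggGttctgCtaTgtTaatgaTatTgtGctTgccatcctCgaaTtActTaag
In this window Gm4864 differed from Hdac1 at 5 bases and Hdac2, the paralog, at 23.

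Over the whole coding sequence, 5 of the 9 substitutions of Gm10093 were the same change in Gm4864. Gm4864 was the more diverged copy, at 94.3% identity, with 56 substitutions, 2 insertions of 19 bases in all, 2 deletions of 9 bases in all and a stop codon in frame at codon 34. Window C, positions 938 to 1007, is shown because it holds the longest insertion of Gm4864 while Gm10093 matches Hdac1 at every base. It comes from chr4:129518831-129518872 and chr4:129518094-129518121 for Hdac1 (minus strand), chr17:78492519-78492588 for Gm10093 (plus strand) and chr12:77623993-77624079 for Gm4864 (minus strand). Capitals again mark inserted or differing bases, and deleted bases are left out.
Hdac1, window C: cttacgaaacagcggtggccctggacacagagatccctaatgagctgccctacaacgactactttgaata
Gm10093, window C: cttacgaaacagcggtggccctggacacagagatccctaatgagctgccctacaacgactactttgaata
Gm4864, window C: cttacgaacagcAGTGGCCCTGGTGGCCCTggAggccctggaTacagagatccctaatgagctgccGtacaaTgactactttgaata
The reads were 150 bases long. Of the 1300 windows of that length in the Hdac1 coding sequence, 705 (54.2%) also occurred letter for letter in Gm10093 and 0 occurred in Gm4864. Counts of Hdac1 and Gm10093 are thus uncertain to the extent that read pairs fell in the shared stretches, whereas no such window of the reference Hdac1 coding sequence matched Gm4864 in every base. Whether reads with mismatches, or from strain sequence that differs from this reference, were counted for either pseudogene was not tested. Of the same windows, 99.7% span an exon junction of Hdac1, which the intronless copies lack.

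Total counts per library ranged from 12825105 to 29749058. Ago1, the gene removed in full, had 0 counts in every Ago413-/- library, against means of 3.33 CPM (counts scaled to library size, with TMM factors) in Ago413+/+ spermatocytes and 3.51 CPM in Ago413+/+ round spermatids, which matches the labels. Ago4, removed in part, had means of 32.1, 15.2 and 12.3 CPM in wild-type, heterozygous and null spermatocytes, and Ago3 of 7.02, 30.3 and 64.8 CPM. The summed level of 9 spermatocyte markers, such as Sycp1 and Hormad1, was 767 to 1921 CPM in spermatocyte libraries and 386 to 813 CPM in round spermatid libraries. The summed level of 8 round spermatid markers, such as Acrv1 and Prm1, was 3365 to 11791 and 15480 to 43862 CPM, so RNA of both marker lists was present in both fractions. The summed spermatogonia markers were at 39.4 to 49.6 CPM in wild-type, 67.7 to 91.5 CPM in heterozygous and 47.3 to 77.7 CPM in null spermatocytes, without overlap between wild-type and heterozygous libraries, and at 57.8 to 102 CPM in round spermatids. Their part in the differences between genotypes was not tested. Lists for other cells were at 10.9 to 71 CPM for Sertoli cells, 3.05 to 23.2 CPM for Leydig cells, 6.24 to 25.3 CPM for macrophages, 1.94 to 8.44 CPM for peritubular myoid cells and at most 2.29 CPM for erythrocytes.

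Hdac1 was lower in every mutant group, with the lowest levels in Ago413-/- cells. In spermatocytes its level was 282, 284, 293 and 278 CPM in the Ago413+/+ libraries, 210, 202 and 220 CPM in the Ago413+/- libraries and 152, 191 and 180 CPM in the Ago413-/- libraries. Round spermatids held 248, 266 and 274 CPM in the wild-type libraries, 201, 189, 220 and 194 CPM in the heterozygotes and 158, 166, 148 and 146 CPM in the nulls. The genotypes did not overlap in either fraction, each heterozygous library lying below all wild-type and above all null libraries. Separation from the wild type was favoured by the way Hdac1 was chosen. The mean was 284 ± 6.34 CPM (SD, n = 4) in wild-type spermatocytes, 210 ± 8.86 CPM (n = 3) in heterozygous ones and 175 ± 19.9 CPM (n = 3) in null ones. In round spermatids the means were 263 ± 13.1 CPM (n = 3), 201 ± 13.5 CPM (n = 4) and 154 ± 9.41 CPM (n = 4).

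Set against the wild type, mean Hdac1 was 38.6% lower in null spermatocytes and 41.3% lower in null round spermatids, and 26.0% and 23.4% lower in the heterozygotes. The fitted log2 fold change of Hdac1 was -0.68 (SE 0.13) in null spermatocytes and -0.80 (SE 0.11) in null round spermatids. In these bulk libraries, fewer cells of a type and less RNA per cell cannot be told apart. The left-out libraries held 256 CPM (wild-type spermatocytes), 232 CPM (heterozygous spermatocytes) and 271 CPM (wild-type round spermatids), each on the same side as its genotype.

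The step from heterozygous to null cells was tested, although its libraries took part in choosing the genes through their contrast with the wild type. Its p-values for Hdac1, Gm10093 and Gm4864 are therefore not independent of that choice. The step was -0.30 on the log2 scale for Hdac1 in spermatocytes (95% interval -0.59 to -0.000674, SE 0.14, edgeR adjusted p = 0.974). In round spermatids it was -0.42 for Hdac1 (interval -0.63 to -0.21, SE 0.10, edgeR adjusted p = 0.631, DESeq2 adjusted p = 0.0260). A gene was called at an adjusted p below 0.05 together with a log2 change above 0.5 in size, and Hdac1 was called in neither step by either tool. With the counts of Gm10093 and Gm4864 added to those of Hdac1, the steps were -0.16 in spermatocytes and -0.27 in round spermatids.

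**Figure D1:**
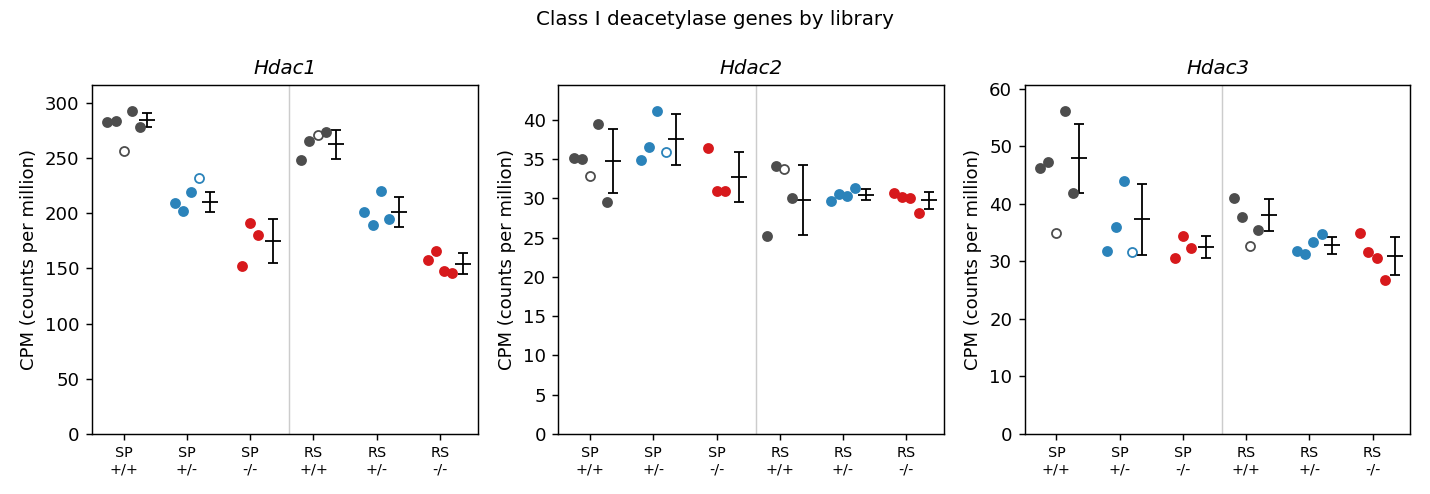
Level of Hdac1, Hdac2 and Hdac3 (y axis, CPM from 0) in each library of spermatocytes (SP) and round spermatids (RS) by Ago413 genotype (x axis). Filled points are the libraries used, open points the libraries that the labels call outliers, and black bars the mean ± SD of the filled points. Hdac1 steps down from +/+ to +/- to -/- in both fractions without overlap, while Hdac2 stays between 25.2 and 41.2 CPM everywhere.

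Hdac2, the paralog that shares the complexes of Hdac1, showed no called difference between genotypes. In spermatocytes Hdac2 was at 35.1, 35.0, 39.5 and 29.5 CPM in wild-type libraries, 34.9, 36.5 and 41.2 CPM in the heterozygotes and 36.4, 30.9 and 31 CPM in the nulls. Hdac2 levels in round spermatids were 25.2, 34.1 and 30.0 CPM in wild-type libraries, 29.7, 30.6, 30.3 and 31.3 CPM in the heterozygotes and 30.7, 30.1, 30.0 and 28.2 CPM in the nulls. All genotype groups overlapped in both fractions, and the highest group mean was 1.26 times the lowest. The left-out libraries, at 32.9, 35.9 and 33.7 CPM, lay within the range of the others.

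The null against wild-type change of Hdac2 was -0.06 in spermatocytes (log2, 95% interval -0.42 to 0.29, SE 0.17, edgeR adjusted p = 0.812). The round spermatid value was -0.03 (interval -0.30 to 0.23, SE 0.12, edgeR adjusted p = 0.907). For the heterozygotes the change of Hdac2 was 0.16 (interval -0.20 to 0.51, edgeR adjusted p = 0.571, and 0.08 to 0.28 with each library left out in turn) in spermatocytes and 0.04 (interval -0.23 to 0.31, edgeR adjusted p = 0.953) in round spermatids. A higher Hdac2 level beside the lower Hdac1 was therefore not detected, with upper limits of 0.29 in null spermatocytes and 0.23 in null round spermatids. The sign of these small values depended on single libraries: without wild-type spermatocyte replicate 4 the null change of Hdac2 was 0.06 with an upper limit of 0.44, and without wild-type round spermatid replicate 2 it was 0.09 with an upper limit of 0.38. Leaving out round spermatid wild-type replicate 1 took that limit to 0.11.

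Hdac3 (ENSMUSG00000024454, minus strand, chr18:37935844-37955016), the catalytic subunit of the NCoR and SMRT complexes, was lower in null cells. In spermatocytes Hdac3 was at 46.1, 47.3, 56.1 and 41.8 CPM in wild-type libraries, 31.9, 36 and 44.0 CPM in the heterozygotes and 30.5, 34.4 and 32.3 CPM in the nulls. In round spermatids Hdac3 stood at 41.1, 37.7 and 35.5 CPM in wild-type libraries, 31.8, 31.3, 33.3 and 34.7 CPM in the heterozygotes and 34.8, 31.7, 30.5 and 26.7 CPM in the nulls. Wild-type and null libraries did not overlap in either fraction, although the left-out wild-type round spermatid library, at 32.6 CPM, would have lain among the nulls, and the left-out wild-type spermatocyte library, at 34.9 CPM, just above them. How many of all genes separated in this way was not computed. In null against wild type, 30.4% of all tested genes in spermatocytes and 19.3% in round spermatids had an unadjusted edgeR p below 0.05.

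The mean of Hdac3 went from 47.9 ± 6.01 CPM (n = 4) to 32.4 ± 1.94 CPM (n = 3) in spermatocytes, 32.2% lower, and from 38.1 ± 2.81 CPM (n = 3) to 30.9 ± 3.34 CPM (n = 4) in round spermatids, 18.8% lower. The null change of Hdac3 was -0.54 on the log2 scale in spermatocytes (95% interval -0.91 to -0.17, SE 0.17, edgeR adjusted p = 0.0742) and did not pass the threshold. With DESeq2 it was -0.52 (adjusted p = 0.0334) and passed, in a comparison in which DESeq2 called 15.6% of all tested genes and edgeR 0.0411%. In round spermatids the change was -0.33 (interval -0.57 to -0.09, SE 0.11, edgeR adjusted p = 0.138, DESeq2 adjusted p = 0.0461) and its size stayed under the fold threshold, where edgeR called 0.0518% of genes and DESeq2 3.64%.

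The edgeR result for Hdac3 in spermatocytes turned on wild-type replicate 5. Without that library the change was -0.59 (edgeR adjusted p = 0.0298), and the number of genes called in the comparison went from 8 to 4526. With the left-out libraries added back, the change of Hdac3 in spermatocytes was -0.41 (edgeR adjusted p = 0.239). The summed spermatocyte markers ranged from 1046 to 1921 CPM in wild-type spermatocyte libraries and from 767 to 1141 CPM in null ones, and their part in the Hdac3 difference was not tested. In heterozygotes the change of Hdac3 was -0.31 in spermatocytes (edgeR adjusted p = 0.265, and -0.45 to -0.18 with each library left out in turn) and -0.21 in round spermatids (edgeR adjusted p = 0.593). Of Hdac2 and Hdac3, edgeR and DESeq2 each called 0 in either heterozygous comparison. EdgeR called 0.0257% of all tested genes in spermatocytes and 0.0207% in round spermatids, and DESeq2 6.31% and 0.0363%. At an unadjusted edgeR p below 0.05 there were 0 of the 2 genes, beside 24.6% of all genes in spermatocytes and 8.88% in round spermatids. With DESeq2 there were 0 in spermatocytes and 1 in round spermatids, beside 26.8% and 9.84% of all genes. Whether the null effect differed between the fractions was tested as an interaction, which was 0.26 for Hdac3 (edgeR adjusted p = 0.816) and 0.09 for Hdac2 (edgeR adjusted p = 0.936).

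**Figure D2:**
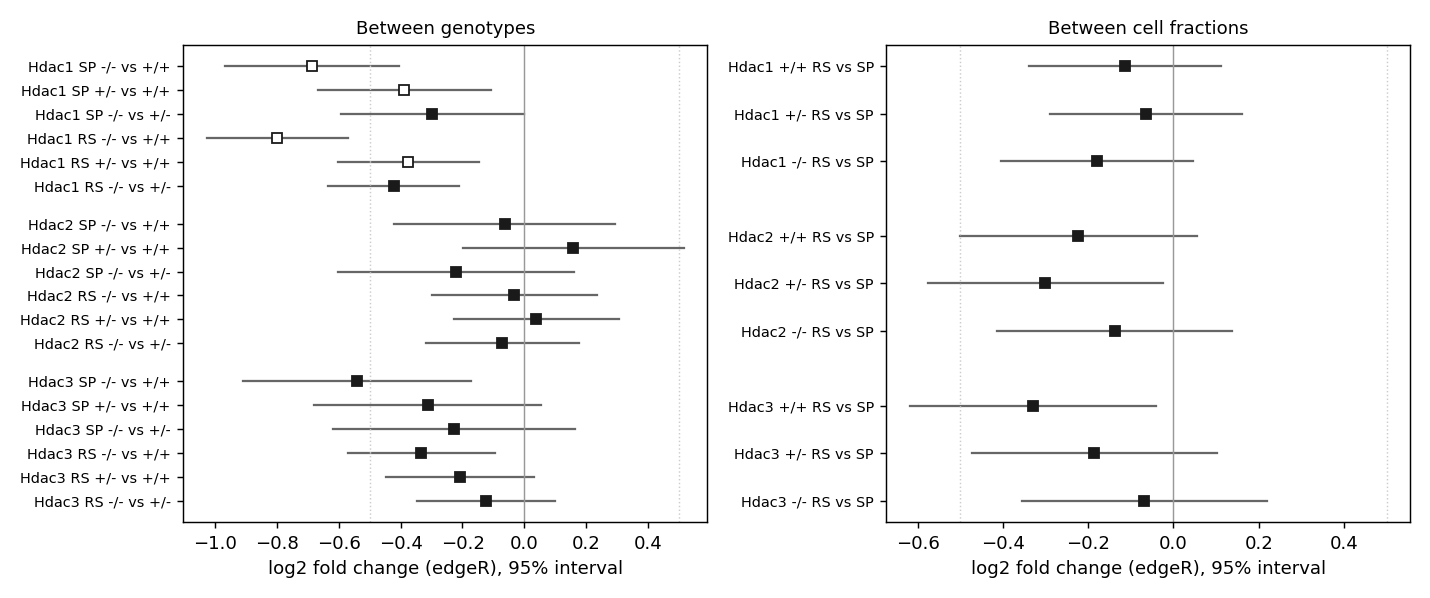
Log2 fold change with its 95% interval (x axis, edgeR) for Hdac1, Hdac2 and Hdac3 between genotypes within a fraction (left) and between round spermatids and spermatocytes within a genotype (right). Open squares are the Hdac1 contrasts with the wild type, which were used in choosing the genes and were not tested, and dotted lines mark a change of 0.5 in either direction. Intervals of Hdac2 between genotypes all span 0, those of Hdac3 for -/- against +/+ lie below 0 in both fractions, and no filled square was called by edgeR.

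Hdac8, the X-linked and remaining class I gene, was barely detected. It had 1 to 13 counts per library and group means of 0.193 to 0.422 CPM, too few for a test within a fraction. In the joint fit of both fractions, the round spermatid against spermatocyte change of Hdac8 was -0.03, 0.54 and 0.27 in wild-type, heterozygous and null cells, with none called.

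Per kilobase of the first-listed transcript of each gene, Hdac1 was by far the most abundant class I transcript, at 139, 103 and 85.7 CPM per kb in wild-type, heterozygous and null spermatocytes and 129, 98.7 and 75.7 CPM per kb in round spermatids. As a share of the summed class I level per kilobase, Hdac1 was 77.3% ± 1.70 (SD, n = 4) in wild-type spermatocytes, 73.6% ± 1.92 (n = 3) in heterozygous and 72.4% ± 2.79 (n = 3) in null ones. In round spermatids the share was 79.3% ± 1.12 (n = 3), 75.7% ± 1.37 (n = 4) and 71.5% ± 1.20 (n = 4). Hdac1 thus remained the leading class I transcript in every genotype. The share of Hdac2 was 9.59%, 13.3% and 14.0% in spermatocytes and 9.11%, 11.7% and 14.0% in round spermatids. The share of Hdac3 was 13.0%, 13.0% and 13.5% in spermatocytes and 11.6%, 12.4% and 14.4% in round spermatids. In length-scaled terms Hdac1 was 8.11 ± 0.827 times Hdac2 in wild-type and 5.31 ± 1.04 times in null spermatocytes, and 8.78 ± 1.03 and 5.10 ± 0.239 times in round spermatids.

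The pseudogenes were high where Hdac1 was low. Gm10093 was at 1.74, 1.86, 2.72 and 1.44 CPM in wild-type spermatocytes, 14.7, 12.7 and 16.1 CPM in heterozygous ones and 24.3, 29.6 and 27.1 CPM in null ones. In round spermatids Gm10093 was at 1.80, 1.51 and 1.58 CPM in wild-type libraries, 14.3, 12.6, 11.9 and 11.7 CPM in the heterozygotes and 25.9, 27.1, 20.8 and 20.1 CPM in the nulls. No library of any genotype overlapped another genotype, and the way Gm10093 was chosen favoured separation from the wild type. The left-out libraries followed their genotype too, at 1.65 and 1.52 CPM in the wild-type ones and 15.5 CPM in the heterozygous one.

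Mean Gm10093 was 1.94 ± 0.547 CPM in wild-type spermatocytes, 14.5 ± 1.70 CPM in heterozygous and 27.0 ± 2.63 CPM in null ones, which is 7.49 and 13.9 times the wild-type mean. The round spermatid means were 1.63 ± 0.152, 12.6 ± 1.17 and 23.5 ± 3.52 CPM, which is 7.73 and 14.4 times the wild-type mean. The null level was 1.86 times the heterozygous level in both fractions. This step, whose libraries took part in choosing the genes, gave a log2 change of 0.87 for Gm10093 in spermatocytes (SE 0.23, edgeR adjusted p = 0.974). For Gm10093 in round spermatids it was 0.85 (SE 0.13, edgeR adjusted p = 0.0970), and with DESeq2 0.88 (adjusted p = 4.33e-06).

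Gm4864 had 0 counts in every wild-type library of both fractions, the left-out ones included. It was at 4.73, 5.10 and 4.0 CPM in heterozygous and 6.71, 7.07 and 8.33 CPM in null spermatocytes. Gm4864 levels in round spermatids were 3.32, 2.70, 4.49 and 4.28 CPM in heterozygous and 8.07, 7.85, 6.73 and 7.58 CPM in null libraries, so that the null libraries lay above the heterozygous ones in both fractions. A count of 0 allows up to 3 counts, which is 0.223 CPM in the wild-type spermatocyte library where they weigh most and 0.207 CPM in the wild-type round spermatid library. Against this floor, which covers counting error only, Gm4864 was at least 20.6-fold higher in heterozygous and at least 33.0-fold higher in null spermatocytes, and at least 17.9-fold and 36.6-fold higher in round spermatids. From heterozygous to null the change of Gm4864 was 0.65 in spermatocytes (SE 0.28, edgeR adjusted p = 0.974) and 0.99 in round spermatids (SE 0.20, edgeR adjusted p = 0.557), and with DESeq2 1.02 in round spermatids (adjusted p = 0.00302). Gm4864 passed the filter on low counts through the mutant libraries alone. The p-values of this step therefore come from the same libraries that brought Gm4864 in, and are given as a description only.

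**Figure D3:**
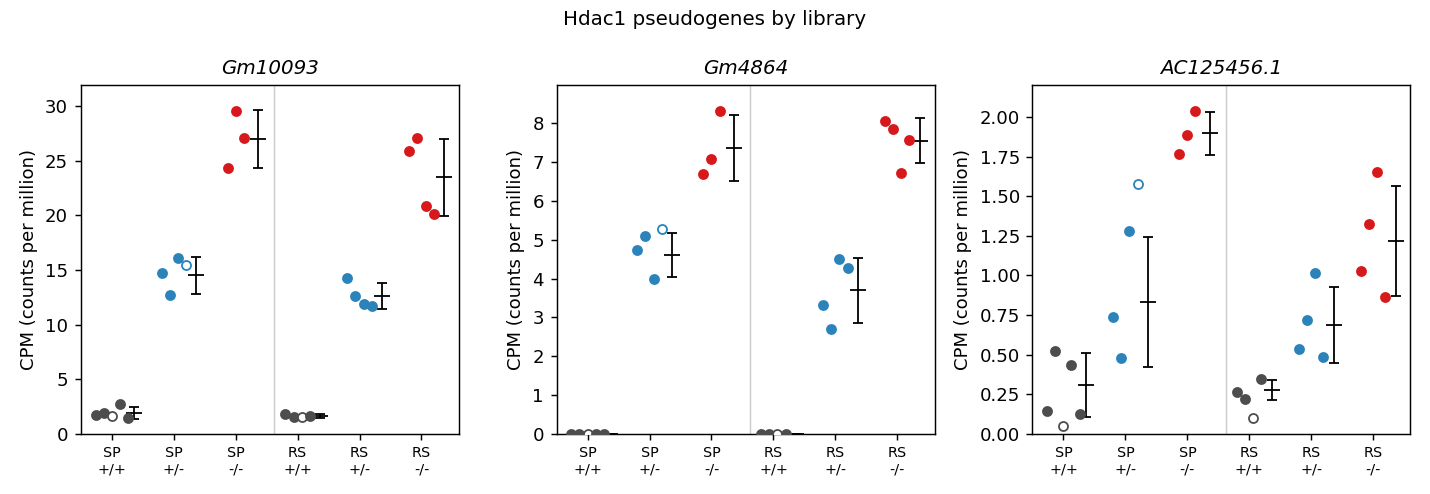
Level of the Hdac1 pseudogenes Gm10093, Gm4864 and AC125456.1 (y axis, CPM from 0, a scale per panel) in each library, by fraction (SP, RS) and Ago413 genotype (x axis). Filled points are the libraries used, open points those that the labels call outliers, and black bars the mean ± SD of the filled points. Gm10093 lies between 1.44 and 2.72 CPM in +/+ and between 20.1 and 29.6 CPM in -/-, and Gm4864 sits at 0 in all +/+ libraries.

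Over all 5 genes, edgeR called 0 in the step from heterozygous to null spermatocytes, where it called 0.00514% of all tested genes. At an unadjusted edgeR p below 0.05 there were 3 of the 5, beside 3.74% of all genes. DESeq2 called 0 of the 5 and 0.0206% of all genes. In round spermatids edgeR again called 0 of 5, against 0.00518% of all genes, with 3 at an unadjusted p below 0.05, beside 7.67% of all genes. DESeq2 called 2 of 5 there, Gm10093 and Gm4864, against 0.104% of all genes. Both had been chosen for their levels in mutant libraries, and Gm4864 passed the filter on low counts through those alone.

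A search of all mouse transcripts for 31-base words of the Hdac1 coding sequence pointed to a further copy, AC125456.1 (ENSMUSG00000118241, chromosome 18), which was taken up after the values of the others were known. It is 96.3% identical to Hdac1, with 53 substitutions and a stop codon in frame at codon 192, and 25 of the 1300 windows of 150 bases (1.92%) occur in it. The level of AC125456.1 was low, at 0.307 ± 0.201, 0.832 ± 0.409 and 1.90 ± 0.136 CPM in wild-type, heterozygous and null spermatocytes and 0.276 ± 0.0628, 0.687 ± 0.241 and 1.22 ± 0.347 CPM in round spermatids. Null and wild-type libraries did not overlap. AC125456.1 had 3 to 9 counts in the wild-type libraries used and so passed the filter on low counts through the mutant libraries alone, and no test against the wild type is given.

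Because reads can be divided between Hdac1 and its copies, the counts of Hdac1, Gm10093 and Gm4864 were also summed. The pseudogenes took 0.674% ± 0.172 of the sum in wild-type spermatocytes (n = 4), 8.33% ± 0.194 in heterozygous (n = 3) and 16.5% ± 0.406 in null ones (n = 3). In round spermatids they took 0.620% ± 0.0873 (n = 3), 7.51% ± 0.461 (n = 4) and 16.7% ± 1.00 (n = 4). The share ranged over libraries from 0.516% to 0.918% in wild-type, 8.11% to 8.49% in heterozygous and 16.1% to 16.9% in null spermatocytes, and from 0.565% to 0.721%, 6.93% to 8.05% and 15.7% to 17.7% in round spermatids, without overlap between genotypes.

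The summed level of the counted reads did not stay even. It was 286 ± 6.89 CPM in wild-type, 230 ± 9.99 CPM in heterozygous and 209 ± 22.8 CPM in null spermatocytes, and 264 ± 13.0, 218 ± 13.9 and 185 ± 13.3 CPM in round spermatids. Mean Hdac1 was lower than in the wild type by 110 CPM in null spermatocytes while the pseudogenes together were higher by 32.4 CPM, which is 29.5% of the Hdac1 difference. In null round spermatids the values were 108 CPM and 29.4 CPM, or 27.1%, and in the heterozygotes the pseudogenes made up 23.3% (spermatocytes) and 23.9% (round spermatids). The sum was 27.0% lower in null spermatocytes and 29.9% lower in null round spermatids. Reads lost for want of a distinguishing base were in none of its terms, so summing could not restore them. Whether their loss differed between genotypes was not tested, so the lower sum does not give the change in Hdac1 RNA. These contrasts also draw on genes chosen because their levels differed between mutant and wild-type libraries.

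Exact two-sided permutation tests over libraries were run on the share and on the sum, 10 in all. Those between null and heterozygous libraries are not independent of the choice of the genes. The share was 8.14 percentage points higher in null than in heterozygous spermatocytes (exact p = 0.1, the smallest that 3 against 3 libraries allow, adjusted p = 0.2). The share in round spermatids was 9.19 points higher (exact p = 0.0286, the smallest possible, adjusted p = 0.0952). The sum was lower by 20.6 CPM in null than in heterozygous spermatocytes, with overlapping libraries (exact p = 0.2, adjusted p = 0.286, and lower by 7.81 CPM without null replicate 1), and lower by 32.3 CPM in round spermatids, without overlap (exact p = 0.0286, adjusted p = 0.0952). None of the 10 passed 0.05 after adjustment. Between the fractions the share differed by -0.0540 points in the wild type (exact p = 0.743), -0.815 in heterozygotes (exact p = 0.0571) and 0.240 in nulls (exact p = 0.686). The sum was lower in round spermatids than in spermatocytes by 21.9 CPM in the wild type, without overlap (exact p = 0.0286, the smallest possible, adjusted p = 0.0952), by 12 CPM in heterozygotes (exact p = 0.229, adjusted p = 0.286) and by 23.7 CPM in nulls (exact p = 0.143, adjusted p = 0.238). Leaving out each library in turn gave -18.3 to -6.93 CPM in heterozygotes and -36.5 to -14.4 CPM in nulls. With all counts of the library as the denominator these differences were -54.5, -46.9 and -59.3 CPM. Per count of Gm10093 there were 0.323 ± 0.0762 and 0.274 ± 0.0343 counts of Gm4864 in heterozygous and null spermatocytes, and 0.297 ± 0.0865 and 0.325 ± 0.0367 in round spermatids.

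**Figure D4:**
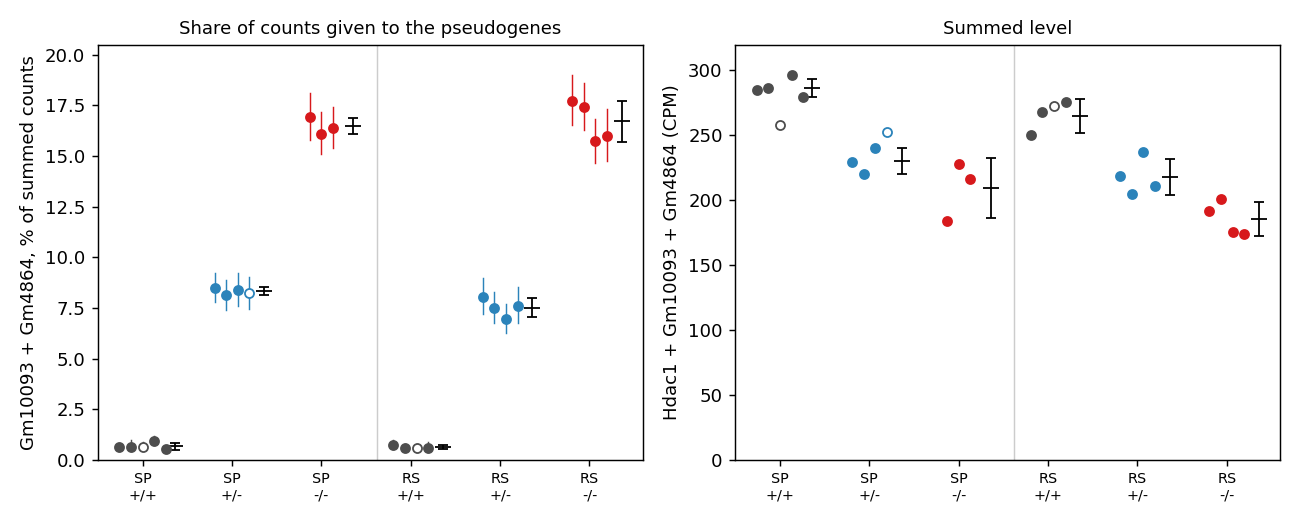
Left, share of the summed counts of Hdac1, Gm10093 and Gm4864 that was given to the pseudogenes (y axis, %, with vertical lines for the Wilson 95% interval of each library, counting error only). Right, the summed level (y axis, CPM from 0), by fraction (SP, RS) and Ago413 genotype (x axis). Filled points are libraries used, open points those that the labels call outliers, and black bars the mean ± SD. The SP means are 0.674% in +/+, 8.33% in +/- and 16.5% in -/-, while the sum is lower in mutants of both fractions.

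Between the cell fractions none of these genes was called. Of the 4 genes with counts in wild-type cells, edgeR called 0 between round spermatids and spermatocytes, although it called 24.2% of all tested genes. At an unadjusted edgeR p below 0.05 there was 1 of the 4, beside 37.9% of all genes. DESeq2 called 0 of the 4 and 26.7% of all genes. In heterozygous cells edgeR called 0 of 5 against 8.89% of all genes, and in null cells 0 of 5 against 17.1%. At an unadjusted edgeR p below 0.05 there were 1 and 0, beside 23.6% and 32.4% of all genes. DESeq2 called 0 in both, beside 11.2% and 19.9% of all genes. The wild-type change was -0.11 for Hdac1 (95% interval -0.34 to 0.11, edgeR adjusted p = 0.469), -0.22 for Hdac2 (interval -0.50 to 0.05, adjusted p = 0.232), -0.33 for Hdac3 (interval -0.62 to -0.04, adjusted p = 0.0848) and -0.24 for Gm10093 (interval -0.69 to 0.21, adjusted p = 0.448). Values in heterozygous and null cells ranged from -0.32 (Gm4864, heterozygous) to 0.04 (Gm4864, null). These fits and the permutation tests between fractions took the fractions as independent, although a spermatocyte and a round spermatid library of a genotype often carry consecutive library numbers in the labels. Over the 9 such pairs, deviations from the group means correlated above 0.1 in 8 (-0.165 to 0.445). The round spermatid library held the lower level in 8 of 9 pairs for Hdac2 and for Hdac3, in 7 of 9 for Hdac1, in 5 of 9 for Gm10093 and in 4 of the 6 mutant pairs for Gm4864, and the lower share of the pseudogenes in 6 of 9. With these pairs as a block, no gene of the set was called between the fractions, and the wild-type change of Hdac3 was -0.33 (edgeR adjusted p = 0.156). Some of the fraction changes were also set by single libraries, as leaving out each in turn gave -0.33 to -0.11 for Hdac2 and -0.37 to -0.02 for Gm10093 in wild-type cells.

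Genes that followed each member most closely over the 21 libraries were ranked by Pearson's r of log2(CPM + 0.5) among 18658 genes, as a description of libraries that share genotype and fraction. Hdac1 was most like Atp6v0e2 (r = 0.940), a proton pump subunit gene, Gcnt3 (0.923), a glycosyltransferase gene, and Mcrs1 (0.913). Atp6v0e2 stood at 13.3, 9.68 and 8.29 CPM in wild-type, heterozygous and null spermatocytes and at 13.1, 9.64 and 7.78 CPM in round spermatids. Hdac2 was most like Rsl1d1 (0.839), Ska2 (0.818) and Cenph (0.813), the last a kinetochore gene. Hdac3 was most like 1700063H04Rik (0.924), Tusc1 (0.920) and Sumo3 (0.918). Each pseudogene was most like the other (r = 0.987), followed by Tyr (tyrosinase; 0.955 with Gm10093 and 0.956 with Gm4864) and the Polycomb gene Phc2 (0.920 and 0.918). Phc2, on chromosome 4 and 0.763 Mb from Hdac1, was at 31.3, 54.8 and 64.5 CPM in spermatocytes and 38.3, 63.6 and 79.4 CPM in round spermatids. Tyr had 0 counts in every wild-type library, like Gm4864, and means of 1.76 ± 0.952 and 3.67 ± 0.847 CPM in heterozygous and null spermatocytes.

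The nearest tested gene on each side of Hdac1, Gm10093 and Gm4864 was examined to see whether neighbours moved with them. Of these 6 genes edgeR called 0 in each of the 6 genotype comparisons, where it called between 0.00514% and 0.0518% of all genes. At an unadjusted p below 0.05 there were 0 in each spermatocyte comparison (3.74% to 30.4% of all genes), and in round spermatids 2 in null against wild type (19.3%), 1 in heterozygous against wild type (8.88%) and 1 in null against heterozygous (7.67%). DESeq2 called 1, Lck, the T-cell kinase gene 5.63 kb from Hdac1, in null round spermatids, where it called 3.64% of all genes. Lck was at 1.29 ± 0.331 CPM in wild-type and 3.02 ± 0.698 CPM in null round spermatids, a log2 change of 1.16 (SE 0.28, edgeR adjusted p = 0.0803, DESeq2 adjusted p = 0.0057), opposite in sign to Hdac1. Marcksl1, 0.119 kb from Hdac1 on the opposite strand, was at 20.5 ± 7.04 and 16.8 ± 8.35 CPM in wild-type and null spermatocytes. Vit, 15.0 kb from Gm10093, was at 120 ± 9.65 CPM and 86.8 ± 9.60 CPM, and Fut8, 147 kb from Gm4864, at 55.0 ± 7.15 and 56.0 ± 6.91 CPM. Between the fractions, edgeR called 4930458K08Rik in wild-type (1.11) and null cells (1.02) and Marcksl1 (1.33) and Fez2 (1.66) in null cells, all higher in round spermatids, where it called 24.2% of all genes in wild-type and 17.1% in null cells.

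Genes of the complexes that class I deacetylases work in, together with the other deacetylase genes, made 6 lists with 49 genes in the table, of which 48 were tested within a fraction. EdgeR called 0 of them in each of the 6 genotype comparisons. In null spermatocytes 13 (27.1%) had an unadjusted p below 0.05 (6 higher, 7 lower), beside 30.4% of all tested genes, and DESeq2 called 9, or 18.75%, beside its 15.6% of all genes. By list, those 13 were 2 of 7 other deacetylase genes, 4 of 14 SIN3, 4 of 10 NuRD, 3 of 9 CoREST, 0 of 5 NCoR and SMRT and 0 of 3 MiDAC genes. In null round spermatids 9 (18.8%) had an unadjusted p below 0.05 (4 higher, 5 lower), beside 19.3% of all genes, and DESeq2 called 1, beside its 3.64%. In heterozygous spermatocytes 11 (22.9%) had an unadjusted p below 0.05 (7 higher, 4 lower), beside 24.6% of all genes, and DESeq2 called 4, or 8.33%, beside its 6.31%. The median log2 change of the 48 was -0.10 in null spermatocytes beside -0.03 over all genes, and -0.01 beside 0.03 in null round spermatids.

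Named by the smallest p in null spermatocytes were Rbbp4, Hdac11 and Gatad2b. Rbbp4, a histone-binding subunit of SIN3 and NuRD that lies 0.181 Mb from Hdac1, had a change of -0.93 (SE 0.19, edgeR adjusted p = 0.0599). Hdac11, the class IV deacetylase gene, had 1.11 (SE 0.25, adjusted p = 0.0599), and Gatad2b, a NuRD subunit gene, 0.69 (SE 0.18, adjusted p = 0.0599). DESeq2 called these 3 genes. In null round spermatids they were Mta2 (-0.63, SE 0.15, edgeR adjusted p = 0.0781), which DESeq2 called (adjusted p = 0.0044), Mbd3 (-0.32) and Rbbp4 (-0.34), all NuRD subunit genes. In the heterozygotes they were Sap30 (-1.19), Rbbp4 (-0.65) and Rcor2 (1.28) in spermatocytes and Gatad2b (0.38), Mta2 (-0.38) and Sap130 (0.33) in round spermatids, none of them called by edgeR. DESeq2 called Sap30, Rbbp4 and Rcor2 there in spermatocytes along with Gatad2b, and none of the named genes in round spermatids. From heterozygous to null they were Sin3b (-0.40), Hdac11 (0.58) and Rbbp7 (-0.70) in spermatocytes and Mta1 (-0.38), Chd3 (-0.31) and Sap130 (-0.27) in round spermatids, called by neither tool.

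Several of the partner genes were called between the fractions. In wild-type cells edgeR called 11 of 49 (6 higher and 5 lower in round spermatids), or 22.4%, close to the 24.2% of all genes. Lower in round spermatids were Zmym2 (-1.22, edgeR adjusted p = 0.000533), a CoREST subunit gene, and the SIN3 subunit genes Sap30 (-1.93, adjusted p = 0.000581) and Arid4b (-1.32, adjusted p = 0.00204). Higher were Mbd2 (1.09, adjusted p = 0.00128), the methyl-CpG-binding subunit gene of NuRD, Hdac9 (1.02, adjusted p = 0.00154) and Zmym3 (0.70, adjusted p = 0.00207). In heterozygous cells 5 of 49 were called (10.2%, beside 8.89% of all genes) and in null cells 7 of 49 (14.3%, beside 17.1%), with Mbd2 at 1.2 and 1.41, Sap30 at -1.17 and -1.35 and Arid4b at -0.88 and -1.03. With the left-out libraries added back, edgeR called 0 genes of the whole table between the fractions in wild-type and in heterozygous cells. No gene was called for a difference of the null effect between the fractions, where 1215 genes in the table and 2 of the 49 had an unadjusted p below 0.05 and DESeq2 called 0.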

How the data were processed

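Poly(A) RNA of 24 libraries was sequenced as paired reads. Per the paper's methods and the labels, the authors trimmed reads with Trim Galore, aligned them to mm10 with STAR and deposited its raw counts per gene, without normalization. The annotation release and the strand column are not given in the sources used here. STAR counts only reads that align to a single place, so reads without a distinguishing base are lost or misassigned between near-identical copies. The members and lists were chosen with earlier results of these data known. Groups and replicate numbers came from the labels. All 55536 identifiers matched GENCODE M21. As in the study, genes with 10 counts in 3 libraries were kept and each fraction was fitted apart. The 3 genotypes shared 1 estimate of spread here, which the paper does not state for its own fit. The main test was the edgeR quasi-likelihood test (4.0.16, R 4.3.3) with TMM scaling and Benjamini-Hochberg adjustment, and calls needed an adjusted p below 0.05 and a log2 change above 0.5 in size. DESeq2 (1.42.0), which the study used, was an alternative. Fractions were compared in a joint fit of 21 libraries. On simulated counts with changes of log2 size 1, 92% were recovered for null spermatocytes, 87% for null round spermatids and 88% between fractions, with 7, 7 and 13 false calls. The simulation used a dispersion of 0.03 and a minimum mean of 50, which need not match the libraries. Smaller changes, such as those of Hdac2 and Hdac3, were not simulated, so these figures do not give the power to detect them. CPM used TMM-scaled totals of kept genes, and for the left-out libraries a scaling over all 24. Pools of animals are the replicates, so p-values measure the spread between pools. Same-group libraries were no repeats (chi-square per gene 9.75 to 179 over 37 pairs). Equal replicate numbers did not pair libraries, since 7 of 17 pairs within a fraction had deviations correlated above 0.1, and consecutive library numbers, whose meaning the labels do not give, were tried as a block between fractions only. Always named were the class I genes, the pseudogenes, the targeted Ago genes, nearest tested neighbours, the 3 most alike genes, and of the lists the called genes (at most 6) or the 3 with the smallest p. Sequence alignments used Biopython 1.88, permutation tests scipy 1.17.1.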

Additional observations from a re-analysis of the deposited data

Results flagged for a closer look

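The share of counts given to the pseudogenes was also computed in the libraries that the labels call outliers and that no comparison used. In the library labelled heterozygous spermatocyte replicate 4 it was 8.22% (Wilson 95% interval 7.46 to 9.04), above the 0.516% to 0.918% of the wild-type spermatocyte libraries and inside the 8.11% to 8.49% of the other heterozygous ones. The groups of 4 or more libraries were also searched for a library far from the rest. In 26 such sets of values 0 stood out, where chance would mark about 1 in 20.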

How the results depend on the processing

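Over the fold changes of the 5 genes and the differences in share and sum, 647 repeats under other settings stayed the same, 10 moved in size, 5 newly passed the threshold and 11 changed sign. Apart from these, 7 of Hdac8 changed sign, and 51 numbers of genes called and 18 group means moved. For tested results, the same meant equal direction and side of the threshold. For the untested contrasts with the wild type it meant equal direction and a shift below the SD between libraries. In the permutation tests the few libraries left little or no room to pass 0.05. Summing Hdac1 with Gm10093 and Gm4864 before the fit brought the change against the wild type to -0.44 in null and -0.27 in heterozygous spermatocytes and to -0.54 and -0.27 in round spermatids. With AC125456.1 added to the sum, chosen after seeing the data, it was -0.42, -0.27, -0.54 and -0.27. Newly past the threshold were Hdac3 in null spermatocytes (DESeq2 -0.52), Gm10093 from heterozygous to null round spermatids (DESeq2 0.88, no low count filter 0.86) and Gm4864 there (DESeq2 1.02). Small values changed sign: Hdac2 in null round spermatids (0.0047 without the filter), Hdac2 in heterozygous round spermatids (-0.032 with the left-out libraries), Gm4864 between null fractions (-0.0097 with DESeq2, -0.0080 with RLE scaling), Hdac8 between wild-type fractions (7.81e-05 without the filter, 0.39 with the left-out libraries, 0.72 with the replicate block) and the Hdac8 interaction (-0.13 and -0.50 with the latter 2). Leaving out each library in turn gave -0.18 to 0.055 for Hdac2 in null spermatocytes, -0.14 to 0.094 in null and -0.10 to 0.17 in heterozygous round spermatids, -0.022 to 0.19 for its interaction, -0.59 to -0.40 for Hdac3 in null spermatocytes, 3.70 to 4.08 and 2.84 to 3.22 for Gm10093 in null and heterozygous spermatocytes, -0.028 to 0.13 for Gm4864 between null fractions, -0.44 to 0.27 and -0.0060 to 0.705 for Hdac8 between wild-type fractions and its interaction, and -0.107 to 0.0274 and -0.0977 to 0.569 points for the pseudogene share between wild-type and null fractions. Apart from Hdac8, the replicate block changed no call or direction (Hdac3 in null spermatocytes -0.58), but moved the number of genes called in null spermatocytes from 8 to 687. A block on consecutive library numbers changed no call or direction of these genes between fractions, but moved the number of genes called in heterozygous cells from 1814 to 1189. The number called in null spermatocytes was 3026 with DESeq2, 2623 without the filter and 1303 with only the compared groups, and in null round spermatids 10 against 702 with DESeq2. The causes were not tested. Counts limit Hdac8 and AC125456.1.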
